A study of Mus musculus with 24 samples.

Results

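The organic ion transporters of the Slc22 and Slco families were described by their level of histone H3 trimethylated at lysine 4 (H3K4m3) in kidney and liver. Members were all genes whose symbol begins with Slc22a or Slco followed by a digit. There were 41 of 27179 genes in the table, 26 in the Slc22 family and 15 in the Slco family. The values came from H3K4m3 chromatin immunoprecipitation sequencing of mouse kidney, liver, brain and heart. Organs had either been fixed in 10% formalin and embedded in paraffin (FFPE) or flash frozen and later crosslinked with formaldehyde. The table held 1 column for each organ and preservation type, so that each of the 4 organs had an FFPE and a frozen value. The labels name no strain, age, sex, genotype or treatment beyond preservation.

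Slc22 proteins carry organic cations, carnitine, urate and organic anions across the plasma membrane, and Slco proteins (the OATP family) carry bile acids, steroid conjugates, thyroid hormones and many drugs. In the proximal tubule of the kidney such carriers take up waste products and drugs from blood for secretion into urine, and in hepatocytes they take them up for metabolism and biliary excretion. H3K4m3 lies at the promoters of active and poised genes, and its level at a gene is not a measure of messenger RNA or protein. The counted part of each gene is not stated and no input library was used. A level may therefore include reads from outside the promoter and background reads.

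Each column is called a library here, and levels are given in CPM, the deposited read share per library without its logarithm. The labels list 2 FFPE samples and 1 frozen sample with the H3K4m3 antibody per organ. It is not stated whether an FFPE column holds 1 of these samples or the sum of both. The columns name no antibody and were taken as H3K4m3 because the table is titled so. FFPE kidney was the deepest library, with 5275085 reads, and frozen heart the shallowest, with 1792394. The 41 members had between 2 and 750 reads per library, with none at 0, and all of them entered the tests. Differences are log2 differences with their standard error (SE), estimated with limma from 8 libraries with organ and preservation in 1 model. Passing means an adjusted p (Benjamini-Hochberg, over 25680 genes) under 0.05. Since no label ties the libraries to different animals, the p-values reflect only how these libraries vary, which may be technical. In whole organs, a lower share of a cell type and a lower mark per cell cannot be told apart. Kidney and liver were checked against marker genes. Of 8 distal nephron and collecting duct markers 6 passed as higher in kidney than in liver, and of 8 proximal tubule markers 2 did, against 1.5% of all genes. The median difference of the 8 proximal tubule markers was 1.31, and Slc27a2 alone was below 0. Of 8 hepatocyte markers 7 passed as lower, against 1.81% of all genes.

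Slc22a12, which encodes the urate transporter of the proximal tubule, Slc22a17, which encodes a lipocalin receptor, and Slco3a1, a broadly expressed OATP, were higher in kidney than in liver, by 7.48-fold, 2.49-fold and 2.88-fold. No member passed as lower in kidney. These 3 of 41 members are 7.32% of the set, against 3.32% of all genes tested, of which 1.5% were higher and 1.81% lower. At an unadjusted p under 0.05 there were 15 members, or 36.6%, against 14.1% of all genes. The median difference of the members was 0.06, or -0.06 after quantile normalization, against 0.03 for all genes on both scales, with 22 members above 0 and 19 below. In both preservation types kidney stood above liver at 18 members, against 29.8% of all genes, and below liver at 14, against 28.8%. The signs differed at the other 9. The libraries of kidney lay entirely above those of liver for 14 members, against 14.9% of all genes, and entirely below for 7, against 10.6%.

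**Figure D1:**
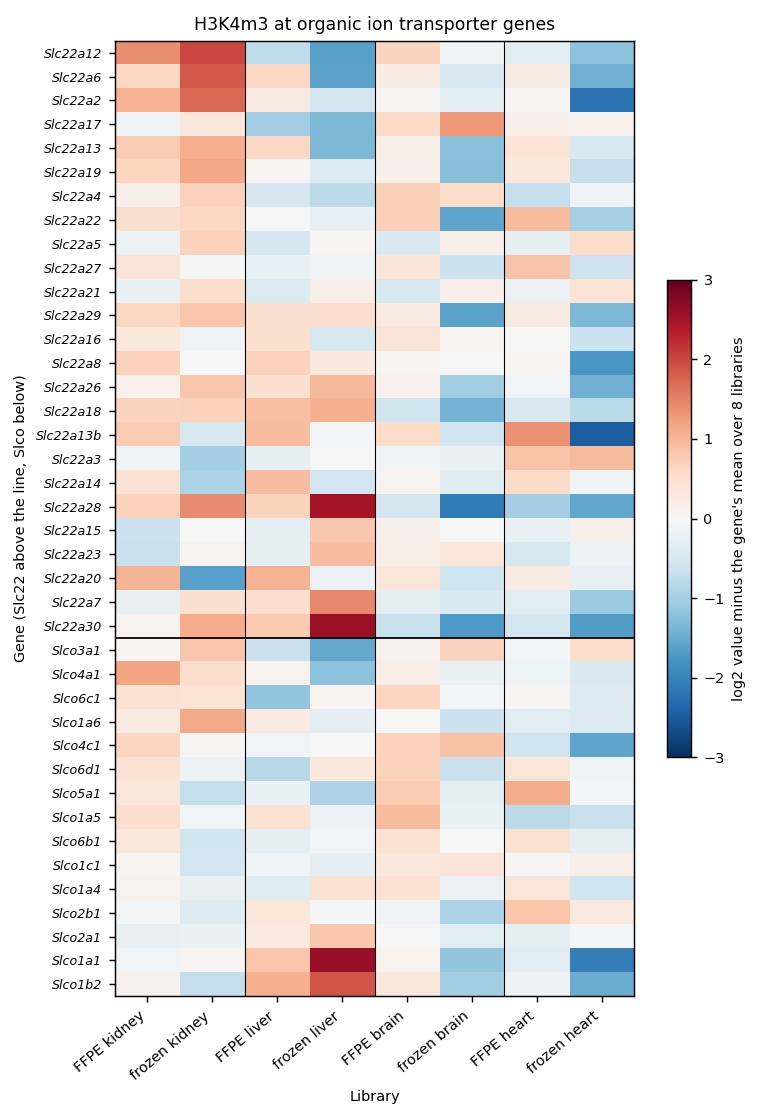
Level of the members in the 8 libraries, as the log2 value minus the mean of that gene over the libraries. Slc22 genes stand above the black line and Slco genes below it, each family ordered by the difference between kidney and liver. Red is above and blue below the gene's mean. Slc22a12, Slc22a6 and Slc22a2 are darkest red in frozen kidney, and Slc22a28, Slc22a30 and Slco1a1 in frozen liver.

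**Figure D2:**
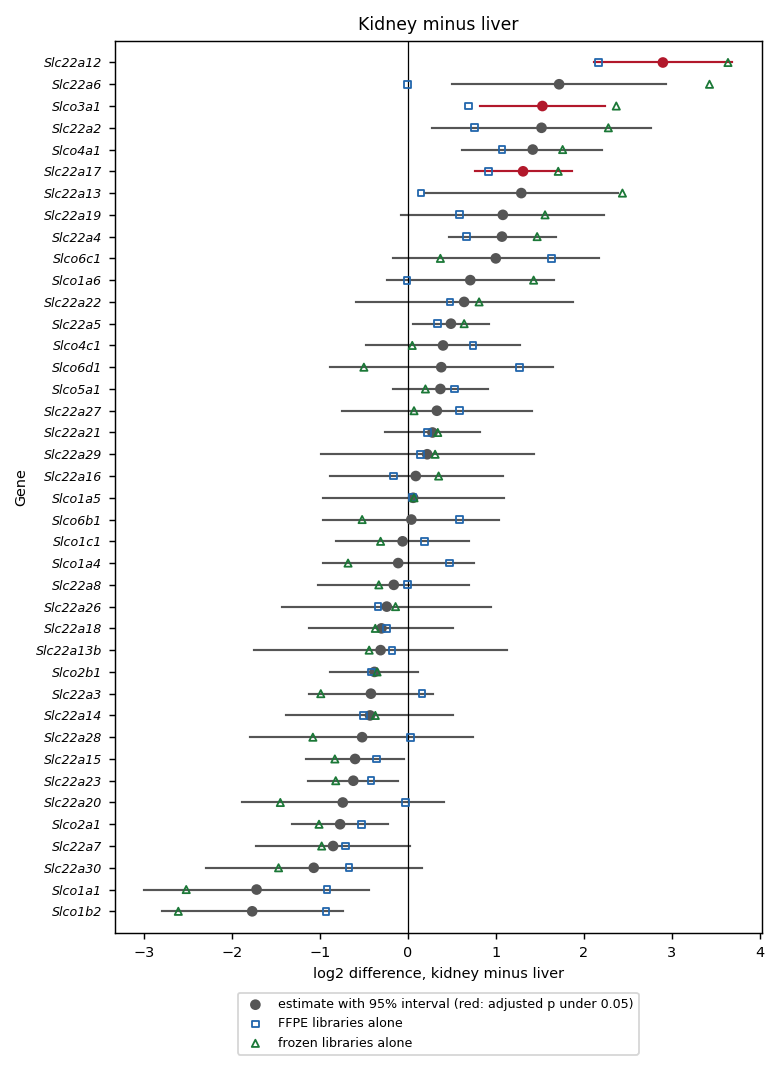
Log2 difference of kidney minus liver for the members, with the 95% interval of the fit as a line. Open squares give the difference between the FFPE libraries alone and open triangles that between the frozen libraries alone. The 3 members that passed are red, and for most members the triangle lies farther from 0 than the square.

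Among the organic anion carriers, Slc22a12 (gene ID 20521, chromosome 19, 6535854 to 6543070) showed the largest difference of all 41 members. Its level was 75.0 CPM in FFPE kidney and 115 in frozen kidney, against 16.7 in FFPE liver and 9.22 in frozen liver. Brain had 45.0 and 26.4 CPM and heart 22.5 and 12.1 in FFPE and frozen tissue. Both kidney libraries thus lay above the 6 others. The difference was 2.90 ± 0.37 (SE, 2 libraries per organ, adjusted p = 0.0015), with 2.17 between the FFPE and 3.64 between the frozen libraries. Its promoter window, 250 bases before to 50 after the annotated start, is shown because the gene leads the comparison. It is from RefSeq, build GRCm38.p6, minus strand, chr19:6543021-6543320, with its 6 CG pairs in capitals.
Slc22a12: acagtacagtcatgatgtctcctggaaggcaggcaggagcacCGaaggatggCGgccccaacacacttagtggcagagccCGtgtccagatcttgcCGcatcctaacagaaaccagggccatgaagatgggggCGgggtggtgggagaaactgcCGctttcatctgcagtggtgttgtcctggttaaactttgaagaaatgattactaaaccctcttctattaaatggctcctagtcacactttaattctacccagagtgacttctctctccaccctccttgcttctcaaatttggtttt

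Slc22a6 (gene ID 18399, chromosome 19, 8617996 to 8628299) and Slc22a8 (gene ID 19879, chromosome 19, 8591254 to 8611835) encode OAT1 and OAT3, the main basolateral uptake carriers of organic anions in the proximal tubule. At Slc22a6 the level was 41.2 CPM in FFPE kidney and 95.4 in frozen kidney, against 41.2 in FFPE liver and 8.83 in frozen liver. Frozen kidney was the highest of the 8 libraries and frozen liver the lowest, while the FFPE libraries of both organs had the same level. Brain had 31.6 and 19.3 CPM and heart 31.4 and 9.88 in FFPE and frozen tissue. The difference between kidney and liver, 1.72 ± 0.57, did not pass (adjusted p = 0.141). It was 0.00 between the FFPE and 3.43 between the frozen libraries. In the test of whether that contrast differed between FFPE and frozen tissue, the change was -3.43 ± 0.69 (adjusted p = 0.246). No gene of the 25680 passed this test, a percent called of 0, and 4 members had an unadjusted p under 0.05: Slc22a6, Slc22a12, Slc22a13 and Slco3a1. That is 9.76% of the members, against 5.74% of all genes.

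Slc22a8, which is known as a kidney carrier, did not separate kidney from liver. It had 35.2 and 21.4 CPM in FFPE and frozen kidney, against 35.1 and 26.9 in FFPE and frozen liver. Brain had 22.5 and 21.4 CPM and heart 22.5 and 6.49. The kidney libraries overlapped those of liver, and frozen heart was the lowest library. The difference of kidney to liver was -0.16 ± 0.40, with a 95% interval from -1.02 to 0.69 (adjusted p = 0.926). Both liver libraries lay above those of brain and heart. That difference, 0.92 ± 0.35, did not pass (adjusted p = 0.114), but did after quantile normalization (adjusted p = 0.0434). Slc22a6 and Slc22a8 are neighbours, and the predicted gene Gm36394 overlaps both in the RefSeq table, so their reads cannot be told apart from its reads.

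The promoter windows of Slc22a6 (plus strand, chr19:8617746-8618045) and of the hepatocyte carrier Slco1b2 (plus strand, chr6:141629268-141629567) are shown as examples from kidney and liver, with CG pairs in capitals. Slc22a6 has 2 and Slco1b2 0.
Slc22a6: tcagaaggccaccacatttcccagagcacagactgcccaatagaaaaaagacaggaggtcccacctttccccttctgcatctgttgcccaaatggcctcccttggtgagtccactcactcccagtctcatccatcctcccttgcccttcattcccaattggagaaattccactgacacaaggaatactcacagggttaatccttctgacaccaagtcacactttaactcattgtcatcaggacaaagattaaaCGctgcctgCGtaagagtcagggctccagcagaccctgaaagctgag
Slco1b2: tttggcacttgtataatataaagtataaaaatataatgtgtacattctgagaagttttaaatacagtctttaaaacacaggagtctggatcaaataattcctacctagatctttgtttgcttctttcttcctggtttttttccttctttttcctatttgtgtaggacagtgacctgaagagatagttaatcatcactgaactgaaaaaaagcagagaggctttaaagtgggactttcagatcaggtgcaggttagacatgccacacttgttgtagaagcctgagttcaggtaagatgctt
Both strands were searched for short motifs in the windows of the 35 members that have one. The letters TATAAA were found in 7 of these genes (20.0%, against 15.7% of 27025 genes with a window). They lay 29 bases before the annotated start in Slco2a1, on the strand of the gene, near the usual place of a TATA box. In Slc22a22 they lay 23 bases before it, but on the opposite strand. In Slco1b2 they lay 234 and 227 bases before the start on the strand of the gene. In Slco1a1 they lay 209 and 99 before it on the opposite strand. In Slco2a1 and Slc22a22 the window with these letters lies inside the RefSeq gene and holds neither of its ends. The annotated start there is therefore not the outermost one. GGGCGG, the letters of the GC box, was found in 9 (25.7%, against 38.2%), among them Slc22a12, Slc22a5 and Slc22a4. CAAAGTCCA, the core of the HNF4 motif, was in no member's window and in 0.555% of genes. A match describes letters in the window and does not show binding.

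Other anion carriers stood on either side. Slc22a7 encodes OAT2, an anion carrier best known from liver. It had 18.2 and 29.5 CPM in FFPE and frozen kidney, against 29.8 and 58.3 in FFPE and frozen liver. Brain had 17.4 and 15.6 CPM and heart 16.7 and 9.88. Both kidney libraries were below both liver libraries, by a narrow margin, and the difference of -0.85 ± 0.41 did not pass (adjusted p = 0.382). Slc22a13, which encodes OAT10, known from human as a nicotinate and urate carrier, had 23.0 and 28.6 CPM in FFPE and frozen kidney, against 20.7 and 5.30 in FFPE and frozen liver. Its kidney libraries were the highest of the 8, and the difference of 1.29 ± 0.51 did not pass (adjusted p = 0.241). Slc22a19, which encodes OAT5 of the tubule, had 14.9 and 21.4 CPM in kidney, against 9.92 and 7.26 in liver, with a difference of 1.08 ± 0.54 (adjusted p = 0.401). Slc22a20, Slc22a22 and Slc22a27 differed by -0.74, 0.64 and 0.33 with adjusted p of 0.62 or more. Slc22a30 differed by -1.07 ± 0.57 (adjusted p = 0.446), and Slc22a28, Slc22a26 and Slc22a29 by -0.52, -0.24 and 0.22. Slc22a14, the pseudogene Slc22a13b and Slc22a16 differed by -0.43, -0.31 and 0.09, and none of these passed.

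Among the organic cation transporters, Slc22a2 and Slc22a3 are neighbours on chromosome 17 and had their highest libraries in different organs. Slc22a2 encodes OCT2, the basolateral cation carrier of the proximal tubule. It had 24.2 CPM in FFPE kidney and 39.0 in frozen kidney, against 14.4 in FFPE liver and 8.04 in frozen liver. Brain had 12.0 and 9.35 CPM and heart 12.1 and 2.54. Both kidney libraries were the highest of the 8, and the difference to liver of 1.52 ± 0.58 did not pass (adjusted p = 0.224). Slc22a3 encodes OCT3, a cation carrier of heart and other tissues, and its highest libraries were those of heart, at 48.8 CPM in FFPE and 51.6 in frozen tissue. It had 24.4 and 13.3 CPM in kidney, against 21.8 and 26.5 in liver, and these overlapped.

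The carnitine and ergothioneine carriers form a group on chromosome 11 of Slc22a5, Slc22a21 and Slc22a4 within 165 kb. Slc22a4 encodes OCTN1, a carrier of ergothioneine, and had 47.5 and 67.9 CPM in FFPE and frozen kidney, against 29.8 and 24.5 in FFPE and frozen liver. Brain had 70.3 and 61.7 CPM and heart 25.9 and 39.8, so that kidney lay above liver but not above brain. The difference of kidney to liver was 1.07 ± 0.28 and did not pass (adjusted p = 0.0551). Slc22a5 encodes OCTN2, which recovers carnitine from urine, and had 76.1 and 140 CPM in kidney, against 60.3 and 89.6 in liver. The libraries overlapped between these organs, and the difference was 0.49 ± 0.20 (adjusted p = 0.275). Slc22a21, a related carnitine carrier of the mouse, differed by 0.28 ± 0.25.

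Slc22a17 (gene ID 59049, chromosome 14, 54906727 to 54913132) had 62.2 CPM in FFPE kidney and 86.4 in frozen kidney, against 32.8 in FFPE liver and 26.5 in frozen liver. Brain had 100 and 168 CPM and heart 75.8 and 74.2 in FFPE and frozen tissue. Liver held the 2 lowest libraries and brain the 2 highest, so kidney was above liver without being the highest organ. The difference of kidney to liver was 1.31 ± 0.26 (adjusted p = 0.0125), with 0.92 between the FFPE and 1.71 between the frozen libraries. Slc22a23 and Slc22a15, carriers with little known function, had differences of -0.62 ± 0.24 and -0.60 ± 0.26 (adjusted p = 0.231 and 0.309). Slc22a18, an imprinted gene, had 27.5 and 27.7 CPM in kidney, against 32.3 and 35.9 in liver. The other organs lay lower, at 11.3 and 6.44 in brain and 12.4 and 9.88 in heart, so that kidney and liver formed a separate upper group.

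**Figure D3:**
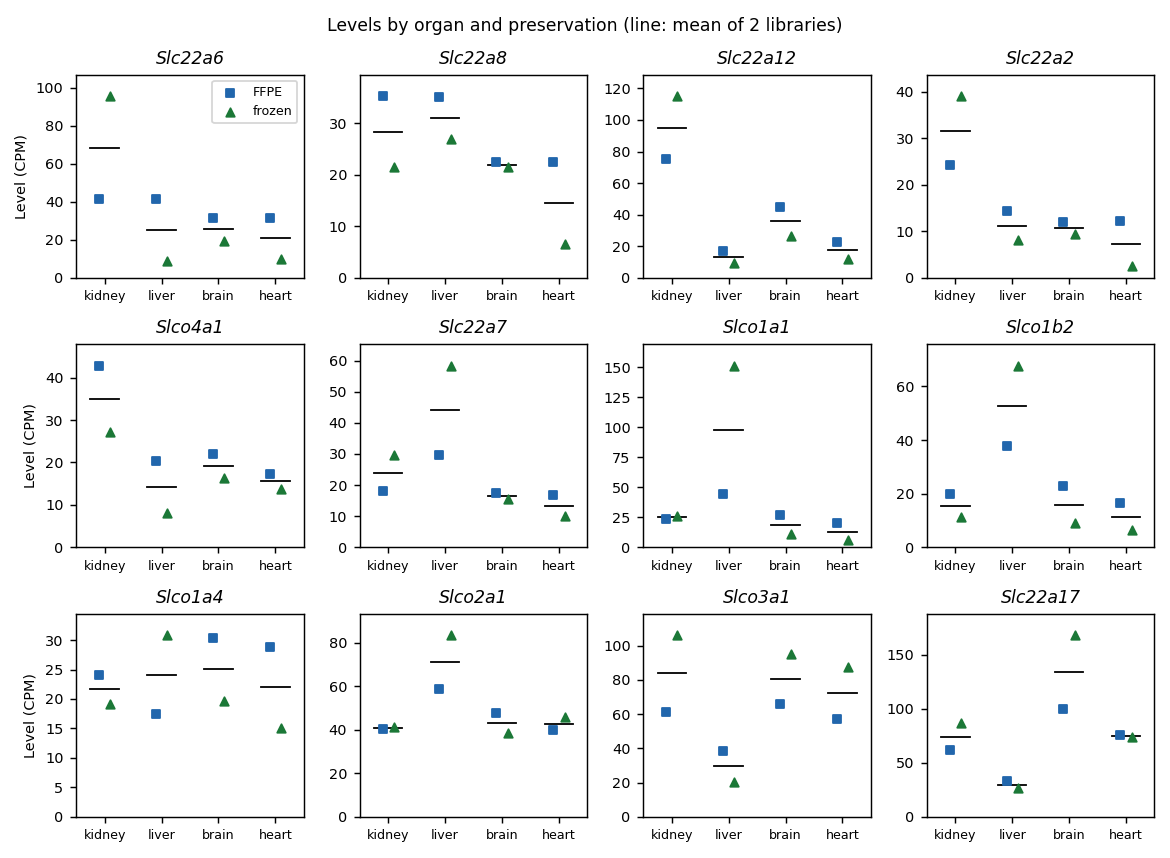
Level in CPM of 12 members in each organ, with FFPE libraries as squares, frozen libraries as triangles and the mean of both as a line. Each panel has its own scale from 0. The frozen kidney library stands highest for Slc22a6, Slc22a12, Slc22a2 and Slco3a1, and the frozen liver library for Slc22a7, Slco1a1, Slco1b2, Slco1a4 and Slco2a1.

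In the Slco family no member passed as lower in kidney. Slco1b2 (gene ID 28253, chromosome 6, 141629452 to 141686646), the mouse gene of the OATP1B type, had 19.9 CPM in FFPE kidney and 11.1 in frozen kidney, against 37.9 in FFPE liver and 67.7 in frozen liver. Brain had 22.7 and 8.94 CPM and heart 16.4 and 6.49. The liver libraries were the 2 highest. The difference of -1.77 ± 0.48 was the lowest of all members and did not pass (adjusted p = 0.0629). Slco1a1, which encodes OATP1A1 of hepatocytes and kidney, had 23.5 and 26.4 CPM in FFPE and frozen kidney, against 44.5 and 151 in FFPE and frozen liver. Brain had 26.6 and 11.0 CPM and heart 20.1 and 5.93. Frozen liver stood far above the 7 others, and the difference was -1.72 ± 0.60 (adjusted p = 0.165).

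The other chromosome 6 genes did not separate kidney from liver. Slco1a4, which encodes OATP1A4 of liver and the blood-brain barrier, had 24.1 and 19.2 CPM in FFPE and frozen kidney, against 17.4 and 30.8 in FFPE and frozen liver. Brain had 30.4 and 19.7 CPM and heart 28.9 and 15.0. No organ stood apart, and the difference was -0.11 ± 0.40 (adjusted p = 0.951). Slco1c1, which encodes a thyroxine carrier of the blood-brain barrier, had 19.8 and 12.9 CPM in kidney, against 17.4 and 15.9 in liver. Brain had its highest libraries at 23.6 and 25.1 CPM, with heart at 19.4 and 21.7. Its kidney and liver libraries overlapped, with a difference of -0.06 ± 0.36 (adjusted p = 0.971). Slco1a5 and Slco1a6 differed by 0.06 and 0.71 (adjusted p = 0.98 and 0.538).

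Slco2a1, which encodes the prostaglandin transporter, had 40.5 and 41.3 CPM in FFPE and frozen kidney, against 58.7 and 83.4 in FFPE and frozen liver. Brain had 47.9 and 38.4 CPM and heart 39.7 and 46.0. Both liver libraries were the highest of the 8, and the difference of -0.77 ± 0.25 did not pass (adjusted p = 0.137). Slco3a1 (gene ID 108116, chromosome 7, 74275418 to 74554780) had 61.5 CPM in FFPE kidney and 106 in frozen kidney, against 38.2 in FFPE liver and 20.6 in frozen liver. Brain had 65.7 and 95.4 CPM and heart 57.1 and 87.8. Liver alone was low and the other organs overlapped. The difference of kidney to liver was 1.53 ± 0.33 (adjusted p = 0.0215), with 0.69 between the FFPE and 2.37 between the frozen libraries.

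Slco4a1, an OATP that carries thyroid hormones, had 42.8 and 27.3 CPM in FFPE and frozen kidney, against 20.4 and 8.04 in FFPE and frozen liver. Its kidney libraries were the highest of the 8, and the difference was 1.42 ± 0.37 (adjusted p = 0.0526). Slco4c1, which encodes the OATP of the kidney tubule, had 25.1 and 16.5 CPM in kidney, against 15.1 and 15.9 in liver. Brain was higher at 26.1 and 29.3 CPM and heart lower at 10.6 and 5.36. The kidney libraries were above those of liver by a small margin, with a difference of 0.40 ± 0.41 (adjusted p = 0.764). The testis genes Slco6b1, Slco6c1 and Slco6d1 had between 4.08 and 14.5 CPM in all libraries, with differences of 0.04, 1.00 and 0.38, none of which passed. Slco5a1 and Slco2b1 differed by 0.37 and -0.38 (adjusted p = 0.59 and 0.526).

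The 3 calls depended on single libraries. Without the frozen kidney library 0 members passed, as against 3 with all libraries, and 16 genes passed of all those tested. The differences were then 2.18 for Slc22a12 (adjusted p = 0.122), 1.14 for Slc22a17 (adjusted p = 0.45) and 1.18 for Slco3a1 (adjusted p = 0.635). Without frozen liver Slc22a12 alone passed, at 2.65 (adjusted p = 0.0066), and Slc22a17 and Slco3a1 had 0.96 and 0.76 (adjusted p = 0.109 and 0.176). Without FFPE kidney Slc22a17 was at 1.48 and no longer passed (adjusted p = 0.0626), while Slc22a6 did. Without FFPE liver 14 members passed, 7 higher and 7 lower, the lower ones including Slco1b2, Slco1a1 and Slc22a30. The share of all genes passing without FFPE liver is not given here. The difference of kidney to liver was larger in size between the frozen than between the FFPE libraries for 32 of the 41 members. Its median size was 0.48 between FFPE and 0.82 between frozen libraries for the members, and 0.34 and 0.50 for all genes.

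Set against brain and heart, the 2 clearance organs were compared with the same 4 libraries, so the results of both are given side by side without a measure of their likeness. In kidney 3 members passed, all higher (7.32%, against 2.55% of all genes passing and 1.25% passing as higher): Slc22a12 at 1.96 ± 0.32 (adjusted p = 0.00474), Slc22a28 at 2.37 ± 0.51 (adjusted p = 0.0246) and Slc22a18 at 1.51 ± 0.33 (adjusted p = 0.026). In liver 10 members passed (24.4%, against 11.4% of all genes), 7 higher, against 5.67% of all genes, and 3 lower, against 5.77%. The kidney libraries lay entirely above those of brain and heart for 14 members, against 6% of all genes, and entirely below for 0, against 4.77%. The liver libraries lay entirely above for 11, against 7.48%, and entirely below for 3, against 7.52%. The median over the members was 0.37 in kidney and 0.15 in liver, against 0.03 and 0.01 for all genes. By family, the kidney median was 0.71 for Slc22 and 0.11 for Slco, and the liver median 0.23 and 0.04. Without frozen kidney 0 members passed in kidney, and without frozen brain or frozen heart Slc22a12 alone did. With either liver library left out 9 passed. The share of all genes passing without each of these libraries is not given here. These counts therefore do not show whether the members changed more than all genes did.

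The 7 members that were higher in liver included hepatocyte carriers and a pair of genes from a group on chromosome 19. Slc22a28 and Slc22a30, mouse organic anion transporter paralogs, were 7.44-fold and 7.15-fold higher (2.89 ± 0.51 and 2.84 ± 0.50, adjusted p = 0.00224 and 0.00211). Slco1a1 was higher by 2.59 ± 0.52 and Slco1b2 by 2.06 ± 0.42, or 4.18-fold (adjusted p = 0.00483 and 0.00509). Slc22a18 was 3.51-fold and Slc22a7 2.87-fold higher (adjusted p = 0.00263 and 0.0121). Lower in liver were Slc22a17 at -1.74 ± 0.22, Slco3a1 at -1.42 ± 0.29 and Slco5a1 at -0.94 ± 0.22 (adjusted p = 0.000314, 0.00516 and 0.0111). Without frozen liver 2 members passed, Slc22a17 and Slco5a1, and none of the 7 higher ones. The share of all genes passing without frozen liver is not given here, so the loss of these calls may not be particular to the members. In the FFPE libraries alone the 7 differences were positive, from 0.81 for Slc22a7 to 1.45 for Slc22a28 and Slc22a18. The FFPE libraries were part of the fit that chose the 7, so these signs are a description and no separate support.

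Hepatocyte marker genes were set beside these calls. Compared with brain and heart, 8 of 8 passed as higher in liver, against 5.67% of all genes. In kidney 0 of them passed, while Slc22a28 and Slc22a18 passed as higher there. The summed level of 8 markers was 444 CPM in FFPE liver and 1570 in frozen liver, and between 73.4 and 114 in the libraries of the other organs, with none of the 8 at 0 reads. The summed level of 8 proximal tubule markers was 491 in FFPE kidney and 578 in frozen kidney, against 372 in FFPE liver and 361 in frozen liver. Of these markers Slc27a2 alone had a lower level in kidney, with a mean of 56.1 CPM against 148 in liver. Its difference of -1.17 ± 0.36 did not pass (adjusted p = 0.102). The part of cell composition and of the enrichment of each library in the members' differences was not tested.

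On chromosome 19, 8 Slc22 genes lie in a row over 955 kb, from 7673075 to 8628299. Against brain and heart, 1 of them passed in kidney (Slc22a28) and 2 in liver (Slc22a28 and Slc22a30). The difference in kidney was positive for 8 of 8, with a median of 1.31, against 53.7% of all genes. In the FFPE libraries alone Slc22a27 was at -0.24 in kidney and the others ran from 0.11 to 1.48. In the frozen libraries alone all ran from 0.58 to 3.27. In liver the difference from all libraries was positive for 6 of 8, with a median of 1.01, against 50.5% of all genes. Between kidney and liver 4 were higher and 4 lower, and none passed. Slc22a28 had 30.9 and 51.2 CPM in FFPE and frozen kidney and 30.2 and 108 in liver, against 13.2 and 4.36 in brain and 9.34 and 6.49 in heart. Slc22a30 had 24.2 and 48.9 CPM in kidney and 38.6 and 136 in liver, against 14.1 and 6.86 in brain and 15.5 and 7.05 in heart. At both genes the kidney and liver libraries lay above all brain and heart libraries. Their neighbours Slc22a26 and Slc22a29 had kidney differences of 1.09 and 1.32 and liver differences of 1.33 and 1.10, none of which passed. Slc22a26 to Slc22a30 are closely related paralogs, and the handling of reads with several matches is not stated, so their separate levels are uncertain.

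**Figure D4:**
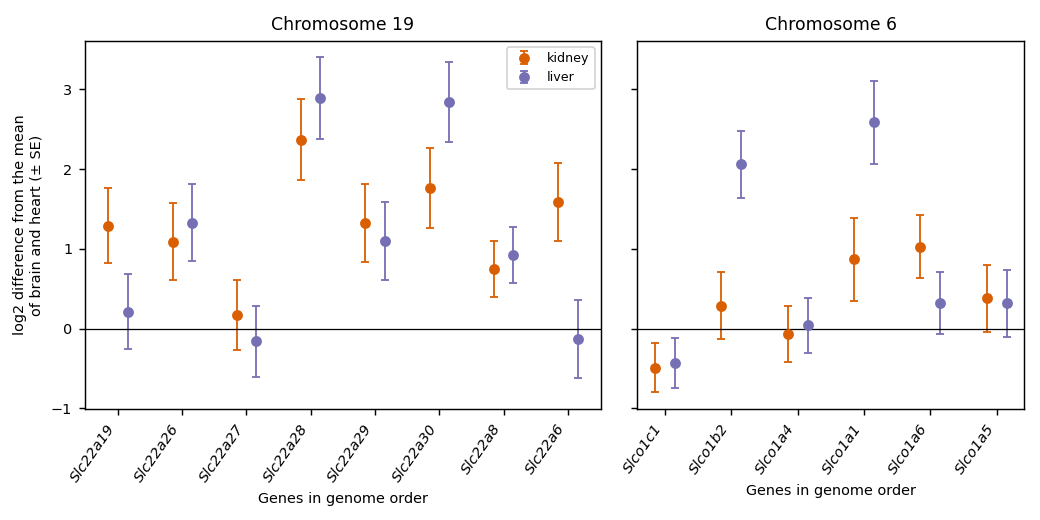
Log2 difference from the mean of brain and heart, with its SE, for kidney and liver at the members of a group on chromosome 19 and a group on chromosome 6, in genome order. Kidney and liver share the brain and heart libraries. On chromosome 19 all 8 kidney values are above 0, and on chromosome 6 Slco1b2 and Slco1a1 stand out in liver.

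On chromosome 6 the 6 Slco1 genes, over 799 kb from 141524354 to 142322981, differed from each other. Slco1b2 and Slco1a1 passed in liver, while Slco1a4, which lies between them, was at 0.04 in liver and -0.07 in kidney. On chromosome 17 the differences from brain and heart were 2.00 in kidney and 0.49 in liver for Slc22a2, and -0.94 and -0.53 for Slc22a3. None of these passed, and Slc22a2 in kidney missed the threshold (adjusted p = 0.0505).

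The organ with the highest level was the same in FFPE and frozen tissue for 23 of 41 members (56.1%, against 42.8% of all genes). It was kidney for 8: Slc22a2, Slc22a5, Slc22a6, Slc22a12, Slc22a13, Slc22a19, Slc22a29 and Slco4a1. Slc22a6 belongs there only narrowly, since FFPE kidney and FFPE liver had the same level to 3 digits. It was liver for 9, among them Slc22a7, Slc22a18, Slc22a20, Slc22a26, Slc22a30, Slco1a1, Slco1b2 and Slco2a1. Brain was highest in both for Slc22a17, Slco1c1 and Slco4c1, and heart for Slc22a3, Slco2b1 and Slco5a1. Slco2b1, a widely expressed OATP, had 92.3 and 62.9 CPM in FFPE and frozen heart, against 50.0 and 39.5 in kidney and 66.6 and 50.4 in liver.

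Preservation moved members as well. Between FFPE and frozen libraries 9 members passed (22%, against 37.8% of all genes), 6 higher, against 16.5%, and 3 lower, against 21.3%. At an unadjusted p under 0.05 there were 13 (31.7%, against 49.5%). All FFPE libraries lay above all frozen libraries for 3 members, against 13.1% of all genes, and below for 2, against 17.1%. The median of all genes was 0.18 on the deposited scale and 0.02 after quantile normalization, and that of the members was 0.33 and 0.04. FFPE stood above frozen tissue in all 4 organs for 8 members, against 26.7% of all genes, and below in all 4 for 3, against 26.6%. Slco5a1 was 2.00-fold higher in FFPE (1.00 ± 0.18, adjusted p = 0.000981). It had 50.2, 34.7, 67.4 and 86.5 CPM in FFPE kidney, liver, brain and heart, against 24.1, 21.0, 32.6 and 38.1 in frozen tissue. Each FFPE library was above the frozen library of its organ. Slco2b1 was higher by 0.54 ± 0.17 (adjusted p = 0.022), and after quantile normalization Slco5a1 and Slco2b1 were the only members that passed. The other 4 higher members were Slc22a13, Slc22a14, Slc22a20 and the transcribed pseudogene Slc22a13b, with differences from 0.99 to 1.80. Their means in the frozen libraries were low, at 12.4, 9.08, 7.05 and 4.97 CPM. Slc22a13b had only 2 reads in frozen heart.

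Slc22a5 fell in FFPE, with 76.1, 60.3, 62.7 and 71.8 CPM in FFPE kidney, liver, brain and heart, against 140, 89.6, 96.6 and 127 in frozen tissue. Every frozen library was above every FFPE library. The difference was -0.72 ± 0.14 (adjusted p = 0.00189), and -0.29 after quantile normalization (adjusted p = 0.119). Slc22a21 and Slc22a23 were lower by -0.64 ± 0.18 and -0.63 ± 0.17 (adjusted p = 0.0132 and 0.011), and neither passed after quantile normalization. Preservation, chromatin preparation and any difference in library kit cannot be told apart here.

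The direction in FFPE went with the CG content of the promoter window. The window of Slc22a5 (minus strand, chr11:53891654-53891953), with its 34 CG pairs in capitals, is shown for contrast with the 6 of Slc22a12.
Slc22a5: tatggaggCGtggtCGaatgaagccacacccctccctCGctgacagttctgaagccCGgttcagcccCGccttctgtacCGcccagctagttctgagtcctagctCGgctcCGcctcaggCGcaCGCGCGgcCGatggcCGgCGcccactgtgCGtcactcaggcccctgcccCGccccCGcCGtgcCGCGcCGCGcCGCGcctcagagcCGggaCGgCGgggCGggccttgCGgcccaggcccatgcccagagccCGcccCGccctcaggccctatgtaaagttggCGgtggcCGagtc
Of the 35 members with a window, 8 had 10 or more CG pairs (22.9%, against 59.1% of 18321 tested genes with a window): Slc22a23 with 38, Slc22a5 with 34, Slc22a4 and Slc22a15 with 29, Slco4a1 with 24, Slco4c1 with 21, Slco2a1 with 18 and Slc22a17 with 13. Where a gene has several windows, the one with most CG pairs was taken. The windows of Slc22a4, Slc22a15 and Slco2a1 lie inside the gene and hold neither of its ends, so their counts belong to inner starts. The FFPE difference had a median of -0.19 in these 8, of which 6 were negative, and of 0.54 in the other 27, of which 24 were positive. All genes showed the same order, with medians of -0.29 and 0.68. After quantile normalization the medians were 0.01 and 0.10 for the members and -0.08 and 0.16 for all genes. Across the 35 members Pearson's r between CG pairs and the FFPE difference was -0.61 and Spearman's rho -0.37, as a description over genes that share the same 8 libraries. Across 18321 genes they were -0.47 and -0.53, so the relation was not particular to the members. Level differed as well among the CG-rich members. Slc22a23 and Slc22a5 had means of 104 and 67.7 CPM in the FFPE libraries. Slco4a1 and Slco4c1, whose FFPE differences were positive, had 25.6 and 19.2. The part of level in the relation was not tested. Among the carriers described above, Slc22a8 had 1 CG pair and Slco1a1 0.

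**Figure D5:**
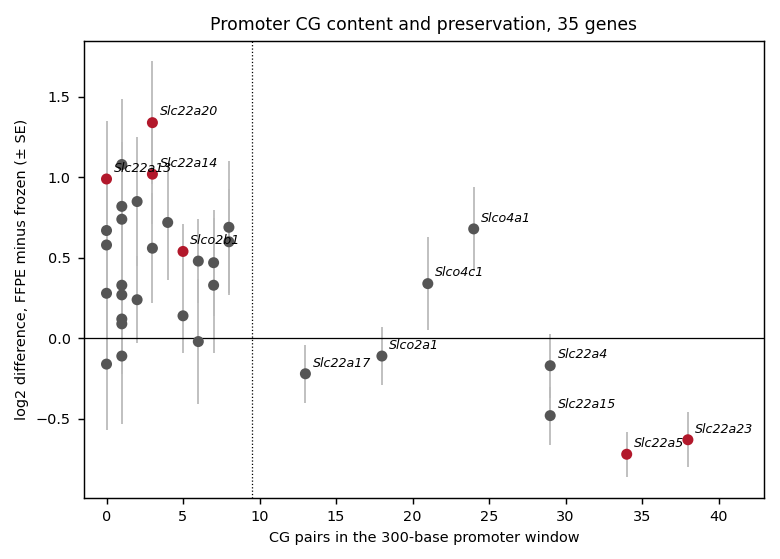
Log2 difference of FFPE minus frozen libraries, with its SE, against the number of CG pairs in the 300-base promoter window, for the 35 members that have one. The dotted line separates windows with 10 or more CG pairs, members that passed are red, and the names are those of the passing and the CG-rich members. Most points to the left lie above 0, and Slc22a5 and Slc22a23 lie below 0 at the right.

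Transporters that work beside the members, on the opposite membrane or on the same substrates, were set side by side for kidney and liver. Of 21 such genes none passed as higher in kidney, against 1.5% of all genes, and 3 were lower, against 1.81%. Their median was -0.16, against 0.03 for all genes. Slc10a1, which encodes the sodium-dependent bile acid uptake carrier of hepatocytes, was 7.29-fold lower in kidney (-2.87 ± 0.52, adjusted p = 0.00807). The phospholipid transporter gene Abcb4 and the conjugate exporter gene Abcc3 were 2.45-fold and 2.26-fold lower (adjusted p = 0.0233 and 0.0227). The 3 with the smallest p above 0 were Slc5a8 at 1.33 ± 0.39, Abcc4 at 0.55 ± 0.25 and Slc17a1 at 0.92 ± 0.48, and none passed (adjusted p = 0.092, 0.339 and 0.436). Of 10 transcription factor genes known to act on organic ion transporters, Nr1i3, which encodes the xenobiotic receptor CAR, was 10.4-fold lower in kidney (-3.38 ± 0.62, adjusted p = 0.00822) and none was higher. Nr1i2, which encodes PXR, and Hnf4a had -1.69 ± 0.47 and -1.23 ± 0.39 (adjusted p = 0.0674 and 0.122). Nfe2l2, which encodes the oxidative stress regulator NRF2, was at 0.23 ± 0.23 (adjusted p = 0.759).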

How the data were processed

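Chromatin was immunoprecipitated with an H3K4m3 antibody from mouse organs and sequenced, with FFPE and frozen tissue brought to sheared chromatin by different procedures, per the labels' protocols. Per the submitters' processing notes, the tools were Bowtie2, featureCounts and limma and the build was mm10. Versions, strand, the counted part of each gene and the treatment of reads with several matches are not stated. Values deposited by the authors are log2 of reads, with 0.5 added, divided by a scaled library total, and whole reads could be recovered to within 0.001 for 100% of them. No input library was used, so levels are shares of each library. A count of 0 allows 3 reads, or 0.537 to 1.69 CPM per library, which covers counting error only.

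The deposited log2 values of 8 libraries were fitted in R 4.3.3 with limma 3.58.1, using a trended empirical Bayes prior, with organ and preservation as terms and 3 residual degrees of freedom. Genes with a mean log2 value of at least 0 were tested, 25680 in all. The 5 comparisons were kidney minus liver, kidney and liver each minus the mean of brain and heart, FFPE minus frozen, and the first by preservation, which left 2 residual degrees of freedom. A preservation difference that varies between organs counts as spread in this model. The script was tested on simulated data. All 41 members matched RefSeq (GRCm38.p6, the assembly that mm10 denotes) by gene ID, and 19 overlap another gene there. Promoter windows of 300 bases were read for 35 members. The labels give the 2 FFPE samples of an organ different dates, which cannot be tied to a column. Full values are given for members that passed in kidney minus liver and for members with textbook roles, and from the partner and regulator lists for those with the 3 smallest p in each direction; some of these genes are counted in totals but not reported here. Members and lists were chosen with earlier results of these data known. Alternatives were quantile normalization, other filters, precision weights, 2 reads added, no preservation term, fewer organs, and leaving out each library.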

Additional observations from a re-analysis of the deposited data

How the results depend on the processing

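With 1 library for each organ and preservation type, precision is limited, and the sources do not give how often a read with several matches was counted. No paired analysis was possible because the columns carry no replicate number. The organ and preservation terms already compare organs within a preservation type and FFPE with frozen tissue within an organ. Of members passing in kidney minus liver (3), the count was 7 after quantile normalization, 6 with 2 reads added, 0 without the preservation term, 11 with kidney and liver libraries only, and 0 to 14 when each library was left out in turn. Without the preservation term the adjusted p was 0.0852 for Slc22a12, 0.368 for Slc22a17 and 0.372 for Slco3a1. For kidney minus brain and heart (3), the count was 8 after quantile normalization, 0 without the preservation term and 0 to 9 leaving out libraries. For liver minus brain and heart (10), it was 4 without the preservation term and 2 to 15 leaving out libraries. For FFPE minus frozen (9), it was 2 after quantile normalization and 6 to 14 leaving out libraries. The difference by preservation (0 members) passed for 1 member, Slc22a6, with precision weights and with any single brain or heart library left out. It could not be fitted without a kidney or liver library. The share of all genes passing under each of these settings is not given here. The counts therefore do not show whether the members changed more than all genes did. The cause of these changes was not tested.

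Slc22a12 passed in kidney minus liver in 13 of 15 alternatives, Slco3a1 in 12 and Slc22a17 in 11, with the same sign in all 15. Leaving out each library in turn gave -0.40 to 0.07 for Slc22a8, -0.84 to 0.62 for Slco1a4 and -0.39 to 0.27 for Slco1c1. Signs turned at these 3 members: with precision weights Slco1a4 was at 0.08 and Slco1c1 at 0.04, without frozen kidney Slco1c1 was at 0.27, and without frozen liver Slc22a8 was at 0.07 and Slco1a4 at 0.62. After quantile normalization the sign of FFPE minus frozen differed for 12 of 41 members, and that of kidney minus liver for Slc22a16, Slco1a5 and Slco6b1.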
